A study of Mus musculus with 6 samples.

Results

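The genes described here are the epidermal growth factor (EGF) family ligands Hbegf, Areg, Ereg, Tgfa, Btc, Epgn and Egf and the ERBB receptors Egfr, Erbb2 and Erbb3. They were chosen by gene symbol, 10 in all among the 19505 genes measured, and each was read from 1 probe set, the brightest on average where a symbol had several. A probe set was named for 9 of the 10, 6 ligands and 3 receptors. No probe set was named Areg, and that gene was not analysed here. Transcripts were measured in 393P cells, a line from a mouse lung adenocarcinoma whose name some labels write as 9393P. The cells carried a stable transfection of AC9, which the sample titles call AC9 overexpression, or of the empty vector (VECTOR). Each group had 3 samples, with 1 Affymetrix Clariom S array per sample. All cells grew in RPMI with fetal bovine serum and were selected with puromycin or G418. The labels do not tie a drug to a group, nor say whether a group's samples came from separate cultures or clones. Drug, selected cells and AC9 thus cannot be told apart, and the p-values cover only the spread among these samples, possibly a technical one. The labels leave AC9 unexplained; the RefSeq gene table has it as another name of Adcy9, which encodes an adenylyl cyclase, an enzyme that makes cAMP.

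EGF family ligands are made as membrane-anchored precursors, and proteases of the ADAM family cut them free at the cell surface. The released ligand binds an ERBB receptor, receptors pair with each other, and their kinase domains start signalling through RAS and ERK, PI3 kinase and AKT, and STAT3. EGFR binds HB-EGF, amphiregulin, epiregulin, TGF-alpha, betacellulin, epigen and EGF, ERBB3 binds neuregulins, and ERBB2 has no known ligand of its own and acts as the partner of the others. In lung epithelium this pathway serves growth and repair, and it is a frequent driver of lung adenocarcinoma.

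Values are log2 intensities, so a difference of 1 is 2-fold, and levels of different genes are not compared because each probe set has its own brightness. The 90th percentile of 5222 negative control probe sets, 6.06 on average over the arrays, served as the bound below which a signal carries no size. Adcy9 read 6.12, 6.09 and 6.15 in VECTOR and 6.78, 6.60 and 6.82 in AC9, a log2 change of 0.61 (SE 0.10, limma adjusted p 0.00264). Its VECTOR arrays lay just above the bound, so the size of this change is uncertain. Of 7 epithelial markers, all lay above the bound in at least 1 group, with Cldn7 under it in AC9 (6.02). The limma threshold was passed by 2 upward (Epcam 0.44, Cldn4 0.50) and 1 downward (Krt19 -0.47), or 42.9% against 17.6% of all genes. These shares are not like for like, since 8646 of all 19505 genes lay under the bound in both groups. The mean level of the 7 was 10.1 on all VECTOR arrays and 10.1 to 10.2 on the AC9 arrays, but it averages over these opposite changes. All 5 alveolar and airway markers, among them Sftpc and Nkx2-1, lay under the bound in both groups, so the lung lineage of the cells was not visible in them. So did all 4 measured leukocyte and all 4 endothelial markers, and 2 of 3 fibroblast markers, with Col1a1 the exception at 6.95 in VECTOR and 7.01 in AC9. Their part in the results below was not tested beyond these levels, and 0 of these 16 markers passed the limma threshold.

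In the AC9 cells 2 ligands were higher, Hbegf by 2.32-fold and Ereg by 1.39-fold, and the receptor Erbb2 was lower by 1.43-fold. These 3 of 9 genes passed an adjusted p of 0.05 in limma, where 17.6% of all genes did (8.26% higher and 9.29% lower). There was no overlap between the groups for 5 of the 9, with 2 higher and 3 lower, where 35.1% of all genes did not overlap (17.3% higher and 17.7% lower). With 9 genes, 3 calls are a small number to set against that background, and the results below are about the single genes. At an unadjusted p under 0.05 there were 5, with Egfr and Erbb3 besides those 3, against 30.3% of all genes. None of these shares is like for like, since 1 of the 9 but 8646 of all 19505 genes lay under the bound in both groups. The median log2 change of the 9 was -0.01, and that of all genes was 0.02.

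**Figure D1:**
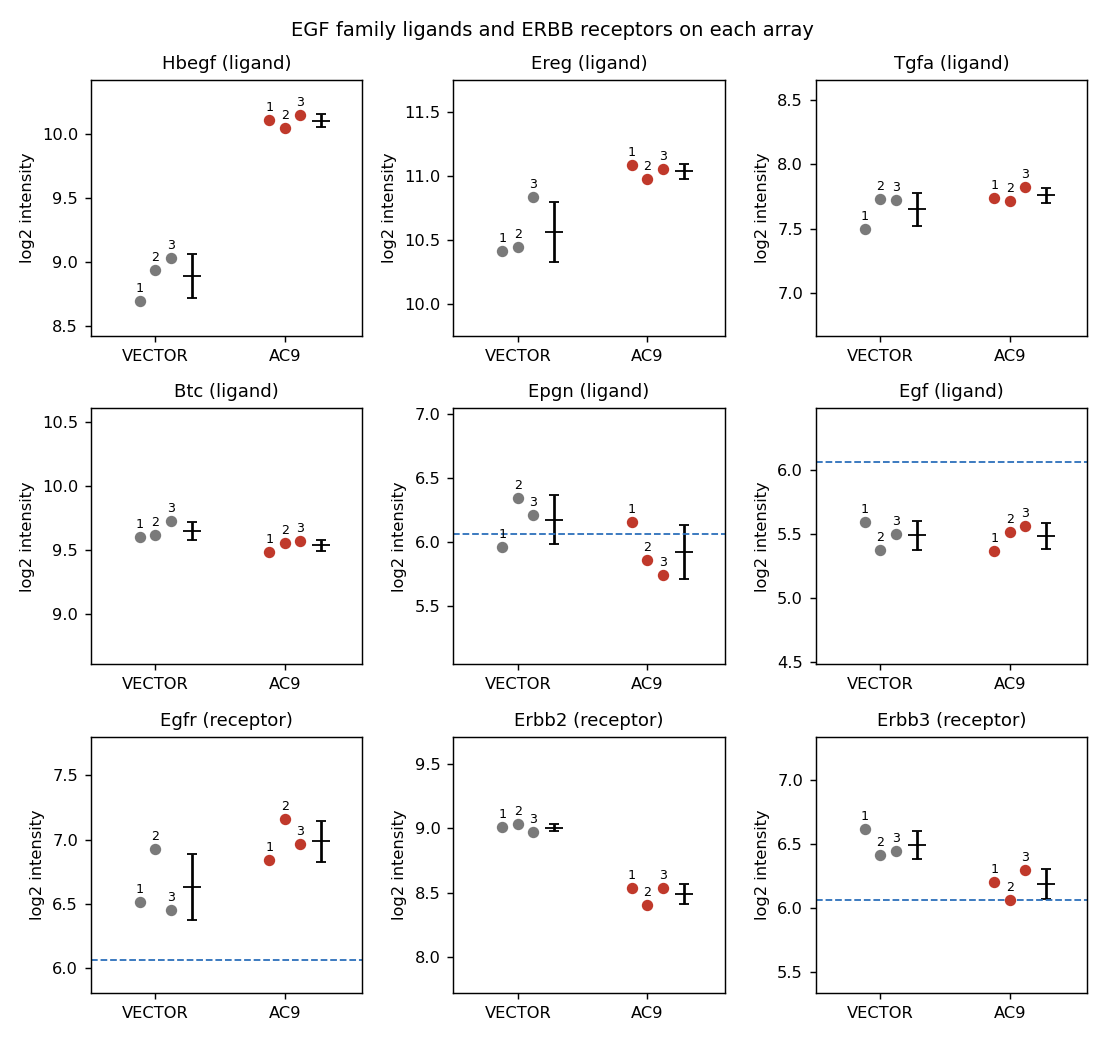
Each panel plots the log2 intensity of 1 gene (vertical axis, 2 log2 units in every panel) on the 3 VECTOR and 3 AC9 arrays, numbered by replicate, with the group mean and SD as bars and the negative-control bound of 6.06 as a dashed line where it falls in range. The AC9 arrays of Hbegf and Ereg lie above every VECTOR array and those of Erbb2 below; Egf lies under the bound on all 6 arrays.

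Hbegf encodes heparin-binding EGF-like growth factor, a ligand of EGFR that is induced by stress and by ERK signalling. Its probe set (TC1800001193.mm.2) read 8.70, 8.94 and 9.03 in VECTOR and 10.11, 10.05 and 10.15 in AC9. The lowest AC9 array lay more than 1 log2 unit above the highest VECTOR array, while the arrays of a group spanned 0.33 in VECTOR and 0.10 in AC9. The means were 8.89 ± 0.17 and 10.10 ± 0.05 (SD, n = 3), a log2 change of 1.21 (SE 0.11, 95% interval 0.97 to 1.46, limma adjusted p 0.000129). By size of rise it was number 82 of 19505 genes. The call held under all 15 alternative settings, with log2 changes of 1.12 to 1.28.

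Ereg encodes epiregulin, a ligand of EGFR and ERBB4 that is common in carcinoma cells with active RAS signalling. Its probe set (TC0500000856.mm.2) read 10.42, 10.45 and 10.83 in VECTOR and 11.09, 10.97 and 11.05 in AC9. VECTOR replicate 3 lay apart from the other VECTOR arrays and just below the lowest AC9 array, though the groups did not overlap. The means were 10.57 ± 0.23 and 11.04 ± 0.06 (SD, n = 3), with a log2 change of 0.47 (SE 0.12, 95% interval 0.19 to 0.75, limma adjusted p 0.0280). It no longer passed once any of 5 arrays was left out: VECTOR replicate 1 (adjusted p 0.0932) or 2 (0.0891), or AC9 replicate 1 (0.0919), 2 (0.0543) or 3 (0.0773), with log2 changes of 0.40 to 0.50. Without VECTOR replicate 3 it held, with a change of 0.61 and an adjusted p of 0.00642.

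The other 4 measured ligands did not pass the threshold. Tgfa, the gene of transforming growth factor alpha, read 7.50, 7.73 and 7.72 in VECTOR and 7.74, 7.71 and 7.82 in AC9. Only VECTOR replicate 1 stood low, and the other arrays of the groups overlapped. The log2 difference was 0.11 with a 95% interval of -0.12 to 0.34 (limma adjusted p 0.521). Btc, the gene of betacellulin, which binds both EGFR and ERBB4, read 9.60, 9.62 and 9.73 in VECTOR and 9.48, 9.55 and 9.57 in AC9. All AC9 arrays lay below all VECTOR arrays, but the difference of -0.11 (95% interval -0.32 to 0.09, limma adjusted p 0.451) did not pass.

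Epgn encodes epigen, a low-affinity ligand of EGFR. It read 5.96, 6.34 and 6.21 in VECTOR and 6.15, 5.86 and 5.75 in AC9, on both sides of the negative-control bound. The AC9 mean of 5.92 lay under that bound, the groups overlapped, and the limma adjusted p was 0.254. Egf, the founding ligand of the family, read 5.59, 5.37 and 5.50 in VECTOR and 5.37, 5.51 and 5.56 in AC9. Every array lay under the bound, so no size of change is given for Egf.

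The arrays of the AC9 group were closer together than those of VECTOR for 6 of the 9 genes, and 57.3% of all genes had the smaller SD in AC9. Within VECTOR, replicate 1 held the lowest value for 5 of the 6 ligands (Hbegf, Ereg, Tgfa, Btc and Epgn) and for 0 of the 3 receptors. It held the lowest of the 3 values for 36.7% of all genes. The count for VECTOR replicate 1, 5 of all 9 genes, and the AC9 counts that follow were the largest of their groups. Within AC9, replicate 3 held the highest value for 6 of the 9 genes (30.6% of all genes). Replicate 2 of AC9 held the lowest for 5 of the 9 (31.8% of all genes).

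**Figure D2:**
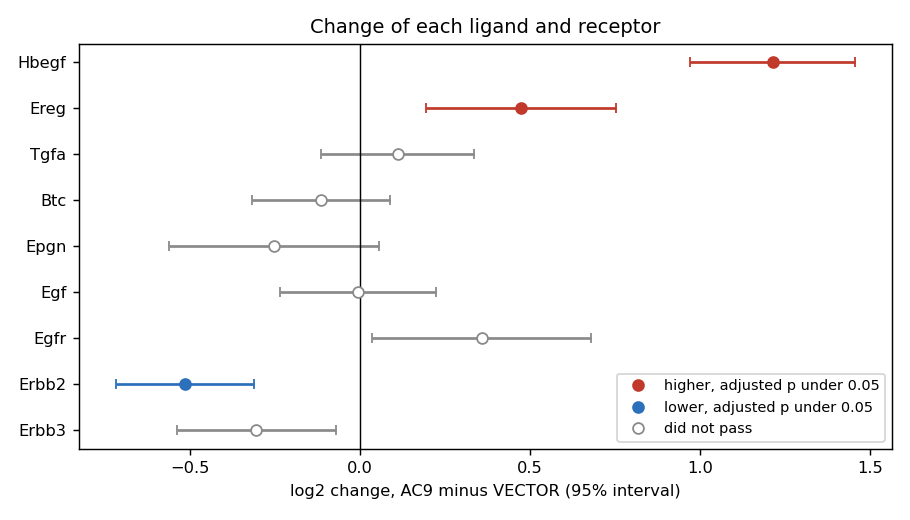
Points give the log2 change of each gene, AC9 minus VECTOR (horizontal axis), and lines its 95% interval from the limma fit; filled points passed an adjusted p of 0.05. Hbegf stands at 1.21, Ereg at 0.47 and Erbb2 at -0.52, while the intervals of Tgfa, Btc, Epgn and Egf cross 0; Egf in both groups and Epgn in AC9 lie under the negative-control bound, so their points carry no exact size.

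Of the 3 receptors, Erbb2 passed, downward, and Egfr and Erbb3 did not. Egfr, the receptor of all 7 ligands listed, was measured by probe set TC1100000161.mm.2 at 6.52, 6.92 and 6.45 in VECTOR and 6.84, 7.16 and 6.96 in AC9. VECTOR replicate 2 lay above AC9 replicate 1, so the groups overlapped. The log2 difference was 0.36 (SE 0.14, 95% interval 0.04 to 0.68), which did not pass (limma adjusted p 0.124, unadjusted p 0.0328). Without VECTOR replicate 2 it did, at 0.50 and an adjusted p of 0.0312.

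Erbb2 encodes the ligandless partner receptor, known as HER2 or Neu. Its probe set (TC1100001568.mm.2) read 9.01, 9.03 and 8.97 in VECTOR and 8.53, 8.40 and 8.54 in AC9. The VECTOR arrays lay within 0.06 of each other, and all 3 AC9 arrays were well below them. The means were 9.01 ± 0.03 and 8.49 ± 0.08 (SD, n = 3), a log2 change of -0.52 (SE 0.09, 95% interval -0.72 to -0.31, limma adjusted p 0.00446). The adjusted p stayed under 0.05 in each of the 15 alternatives, at most 0.0199, and its change ranged from -0.54 to -0.47.

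Erbb3 encodes the neuregulin receptor whose kinase is nearly inactive and which signals mainly as a partner of ERBB2. It read 6.61, 6.41 and 6.44 in VECTOR and 6.20, 6.06 and 6.30 in AC9. The groups did not overlap, but AC9 replicate 2 lay at the negative-control bound. The log2 difference of -0.30 (SE 0.10, 95% interval -0.54 to -0.07) did not pass over all genes (limma adjusted p 0.0757). It did pass when dim genes were left out and fewer genes were tested (adjusted p 0.0317). Of the 23 background probe sets, which match no transcript, 19 were likewise lower in AC9 without overlap. With each array centred on its negative controls, the difference was -0.32 for Erbb3 (limma adjusted p 0.0669) and -0.53 for Erbb2 (0.00396). The negative controls are a separate set from the 23 background probe sets. Whether the fall of the background probe sets bears on these receptors was not tested.

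For Erbb2, the receptor that passed, and Egfr, the receptor of the ligands, the 250 bases before the gene start are shown, since these hold the core promoter. They are from RefSeq on GRCm38.p6, both on the plus strand, at chr11:16751953-16752202 for Egfr and chr11:98412234-98412483 for Erbb2. Capitals mark a match to TGACG on either strand, the core of the cAMP response element (CRE).
Egfr: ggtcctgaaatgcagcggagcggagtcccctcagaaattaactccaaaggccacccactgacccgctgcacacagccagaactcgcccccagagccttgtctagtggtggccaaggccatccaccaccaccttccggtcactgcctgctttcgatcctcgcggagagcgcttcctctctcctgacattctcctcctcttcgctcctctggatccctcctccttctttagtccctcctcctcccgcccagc
Erbb2: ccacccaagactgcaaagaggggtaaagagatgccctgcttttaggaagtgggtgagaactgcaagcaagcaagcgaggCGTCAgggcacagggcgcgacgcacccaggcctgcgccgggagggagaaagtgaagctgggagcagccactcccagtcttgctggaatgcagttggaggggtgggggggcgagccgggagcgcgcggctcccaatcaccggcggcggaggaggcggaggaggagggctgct
Promoter sequences were matched by symbol for 7 of the 10 genes: Areg, Tgfa, Btc, Epgn, Egf, Egfr and Erbb2. Both strands of these 250 bases were searched for the full CRE TGACGTCA, its core TGACG (which the full CRE contains), the AP-1 motif TGANTCA, the EGR motif GCGNGGGCG, the E-box CACGTG and the TATA box TATAAA. Erbb2 held TGACG 1 time, on the minus strand and starting 171 bases before the gene start, as 17.8% of 32851 promoters of the same length do. Egfr, Tgfa and both promoters of Egf held none of the motifs. Btc and Epgn each held TGACG 1 time and Areg 3 times, and Epgn and Areg also held TATAAA 1 time each (12.4% of promoters). The full CRE was found only in the promoter of Areg, the ligand with no probe set named here, starting 61 bases before the gene start (1.55% of promoters). These are matches of letters and not binding sites.

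Epgn, Ereg, Areg and Btc stand next to each other on chromosome 5 in the reference gene table. Within this cluster Ereg passed upward, while Epgn, dim in AC9, and Btc did not pass (limma adjusted p 0.254 and 0.451), and no direction is read for them. Mthfd2l, the measured gene before the cluster, had a difference of -0.01 (limma adjusted p 0.968). Parm1, the measured gene after it, was lower in AC9, with a log2 change of -0.63 (SE 0.09, adjusted p 0.00199). On chromosome 11, Pgap3, which encodes a remodeller of GPI anchors and lies directly before Erbb2, read 7.35, 7.41 and 7.34 in VECTOR and 6.58, 6.65 and 6.76 in AC9. Its change of -0.71 (SE 0.09, adjusted p 0.000984) had the same direction as that of Erbb2. Mien1 and Grb7, on the other side of Erbb2, had differences of -0.34 and -0.24 that did not pass (adjusted p 0.170 and 0.353), and their groups overlapped. Beside Hbegf, Pfdn1, a subunit of the prefoldin chaperone, rose by 0.45 (adjusted p 0.00751), while Sra1, on its other side, differed by -0.08 (adjusted p 0.665). These neighbours were chosen after the values of the ligands and receptors were seen.

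**Figure D3:**
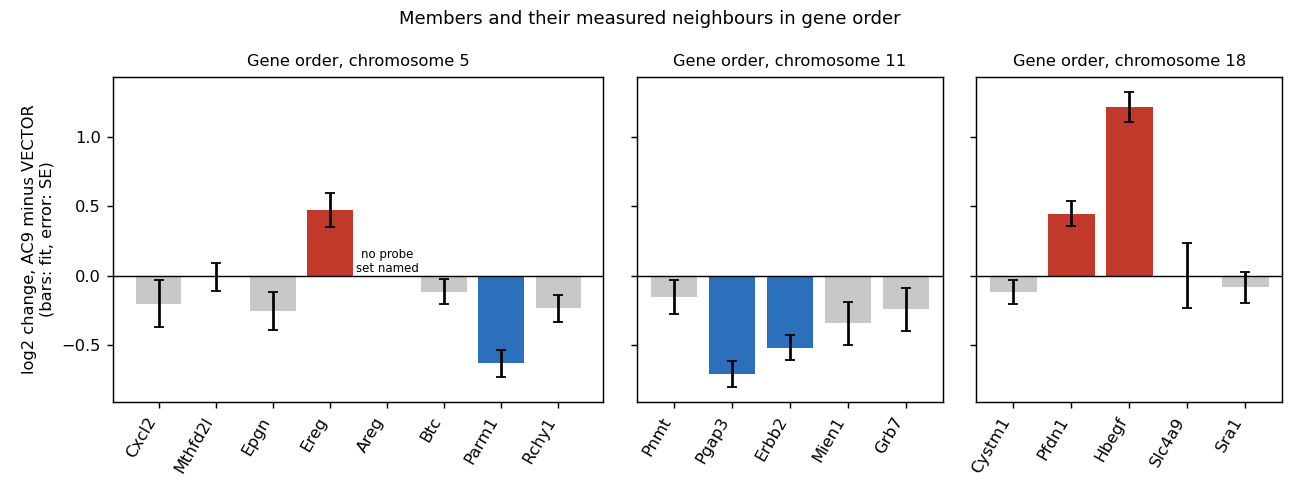
Bars give the log2 change, AC9 minus VECTOR, and its SE for genes in their order along 3 chromosomes, with 2 measured neighbours on each side; red and blue bars passed an adjusted p of 0.05 and grey bars did not. Ereg (0.47) is the only 1 of the 3 measured ligands of its cluster to pass, Epgn, under the negative-control bound in AC9, has no exact size, and Pgap3 (-0.71) and Erbb2 (-0.52) are adjacent and both lower.

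Over the 6 arrays, the genes with the pattern most like that of Hbegf were Itga2, Depdc1b, Pitpnc1, Fermt1 and Zeb1. Likeness was the root-mean-square difference of the log2 values, each gene centred on its own mean, among 10858 other genes above the bound in at least 1 group. It was 0.045 log2 units for Itga2, an integrin subunit that binds collagen, and 0.087 for Zeb1, a repressor of epithelial genes. Among the family itself, Ereg was number 741 in that order, at 0.38. The genes most like Egfr were Spaca9, Wdr33, Defb36, Klhl21 and Gm53, at 0.059 to 0.071, and each of these had an adjusted p above 0.05. For Hbegf the likeness rests mostly on the size of the change between the 2 groups. For Egfr it rests also on the spread within groups. Egfr and the genes most like it all had replicate 2 as the highest array in VECTOR and in AC9.

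Among the rest of the family, Nrg1, the gene of neuregulin 1, a ligand of ERBB3 and ERBB4, was the only 1 of 5 genes to pass. That share of 20% is near the 17.6% of all genes. Nrg1 read 9.54, 9.48 and 9.73 in VECTOR and 10.70, 10.60 and 10.67 in AC9. All AC9 arrays lay well above all VECTOR arrays, with a log2 change of 1.07 (SE 0.10, limma adjusted p 0.000157), or 2.11-fold. Erbb4, Nrg2 and Nrg3 were too dim in VECTOR and AC9 alike to reach the negative-control bound, and Nrg4 was at it, with 6.05 in VECTOR and 6.13 in AC9. Of the receptors that bind neuregulin 1, Erbb3 was the one above the bound, with the difference of -0.30 given above.

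Genes that act on ligand release moved in both directions. Of 16 measured, 2 were higher and 4 lower, or 37.5% against 17.6% of all genes, with a median log2 change of -0.09. Under the bound in both groups lay 3 of the 16 but 8646 of all 19505 genes, so the 2 shares are not like for like. Timp3, an inhibitor of ADAM17 and other metalloproteases, fell from 10.45 ± 0.09 to 8.23 ± 0.07 (SD, n = 3), 4.69-fold. Adam10, the protease that sheds betacellulin and EGF, was lower by 1.64-fold (log2 change -0.72, limma adjusted p 0.000722). Frmd8, which stabilises the complex of ADAM17 with iRhom proteins, was lower by 1.54-fold. Rhbdf2, the gene of iRhom2, was higher by 1.42-fold and Adam12, which can shed HB-EGF, by 1.41-fold. Adam17, the main protease for HB-EGF, amphiregulin, epiregulin and TGF-alpha, read 9.14 ± 0.07 in VECTOR and 8.93 ± 0.14 in AC9 (SD, n = 3), a difference of -0.21 that did not pass (limma adjusted p 0.215). Rhbdf2 did not pass once VECTOR replicate 1 (adjusted p 0.0516) or 2 (0.0569) or AC9 replicate 3 (0.0541) was left out.

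HB-EGF and amphiregulin bind heparan sulfate. Of 9 measured genes of heparan sulfate carriers, of enzymes that build its chains and of other surface or matrix proteins, 1 was higher and 3 lower (44.4%, against 17.6% of all genes), with a median of -0.14. Only 1 of the 9 lay under the bound in both groups, where 8646 of all 19505 genes did, so these shares are not like for like. The syndecans Sdc2 and Sdc1, proteins that carry heparan sulfate chains, were lower by 1.56-fold each (log2 changes -0.64 and -0.64). Cd44, which can present HB-EGF, was lower by 1.31-fold, but did not pass once AC9 replicate 1 was left out (adjusted p 0.0547). The glypican Gpc1 was higher by 1.56-fold (limma adjusted p 0.0111).

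Of 20 genes that restrain ERBB receptors or their signal, 6 were higher and 3 lower (45%, where 17.6% of all genes were called), with a median of 0.09. Under the bound in both groups lay 0 of the 20 but 8646 of all 19505 genes, so these shares are not like for like. Errfi1 encodes MIG6, an inhibitor that binds the EGFR kinase and is induced by EGF. It read 10.55, 10.28 and 10.51 in VECTOR and 11.33, 11.40 and 11.57 in AC9. The groups were clearly apart, with a log2 change of 0.99 (SE 0.11, limma adjusted p 0.000466), or 1.98-fold. Spry4, a Sprouty inhibitor of RAS signalling, rose 1.57-fold and the phosphatase gene Ptpn2 1.35-fold. In the other direction, Lrig3 changed by -0.75, Spry1 by -0.66 and the ubiquitin ligase gene Cblc by -0.45. The count of 9 fell to 4 without AC9 replicate 1, 2 or 3 and to 5 without VECTOR replicate 1 or 2, and was 5 with the replicate number as a block. Ptpn2 lost its call without any array but VECTOR replicate 3 (adjusted p 0.0609 to 0.0718), and Cblc without any array at all (0.0503 to 0.132) as well as with repeated quantile normalization (0.0736), with each array centred on its median (0.0569) and with the block (0.0571).

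Of 27 measured adaptors and signalling proteins next to the receptors, 3 were higher and 4 lower (25.9%, where 17.6% of all genes were called), with a median of -0.13. The 2 shares are not like for like, since 0 of the 27 but 8646 of all 19505 genes lay under the bound in both groups. Stat3, a transcription factor that ERBB receptors can activate, changed by -0.97 (SE 0.10, limma adjusted p 0.000361), a 1.95-fold difference. Pik3r1, the regulatory subunit of PI3 kinase, changed by -0.63 and the kinase gene Akt1 by -0.55. Pik3cb, a catalytic subunit of PI3 kinase, rose by 0.42, the kinase gene Src by 0.33 and the endocytic adaptor gene Eps15 by 0.30. These 3 rises were small: 0 of them passed without VECTOR replicate 1 or 2 or AC9 replicate 1, 2 or 3, and the list's count was then 3 or 4. Src and Eps15 lost the call without VECTOR replicate 3 as well (adjusted p 0.0567 and 0.0558), with the block (0.0627 and 0.0778) and with arrays centred on the negative controls (0.0502 and 0.0561). The intensity-trended prior gave 12 calls, 6 in each direction, but it also raised the calls over all genes from 3424 to 4674.

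Of 23 measured transcripts that EGF is known to induce, 9 were higher and 0 lower (39.1%, where 8.26% of all genes were called higher), with a median log2 change of 0.30. Some of these genes had been described as higher in these data before the list was drawn up, so the count is not independent evidence of a direction. The 2 shares are also not like for like, since 0 of the 23 but 8646 of all 19505 genes lay under the bound in both groups. Ptgs2, the prostaglandin synthase, rose 2.72-fold, from 10.03 ± 0.09 to 11.47 ± 0.07 (SD, n = 3), and the cytokine gene Lif 2.62-fold. Egr1, an immediate early transcription factor, read 7.92, 7.91 and 8.18 in VECTOR and 8.71, 8.52 and 8.86 in AC9, a rise of 1.61-fold (limma adjusted p 0.00451). The AP-1 members Fosb and Fosl1 rose by 0.52 and 0.47, and Fos itself had a difference of -0.12 that did not pass (adjusted p 0.590). With the intensity-trended prior the count was 16, of which 15 were higher. Over all genes that prior gave 4674 calls, 2249 of them higher, against 3424 with 1612 higher as reported.

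**Figure D4:**
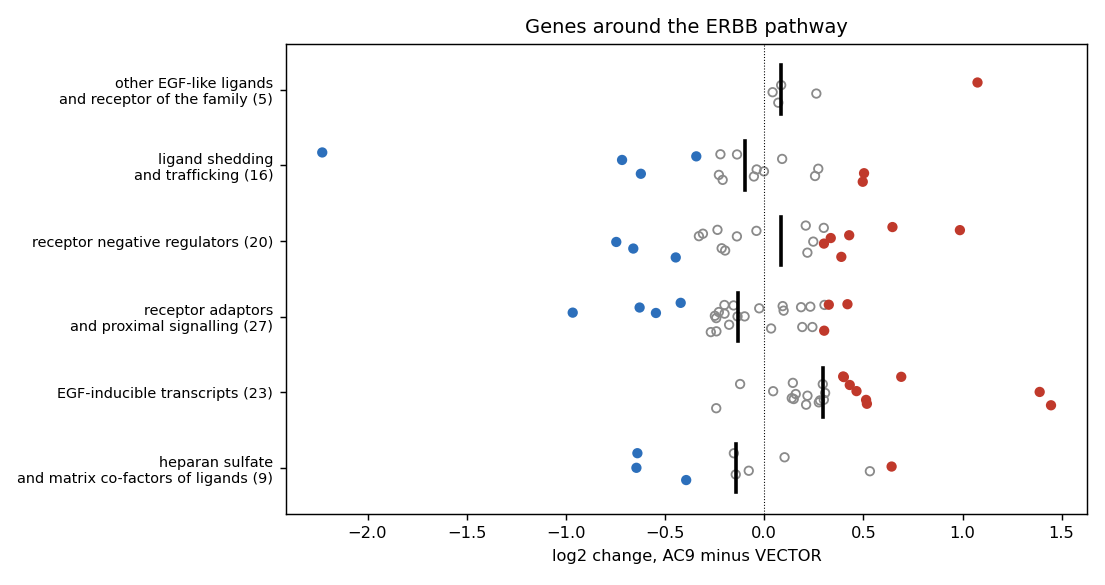
Each point is 1 gene and the horizontal axis its log2 change, AC9 minus VECTOR; filled red and blue points passed an adjusted p of 0.05, open points did not, and the black bar is the list's median, with the number measured in parentheses. Nrg1 (1.07), Timp3 (-2.23), Errfi1 (0.99), Stat3 (-0.97) and Ptgs2 (1.45) lie farthest out in their lists.

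**Figure D5:**
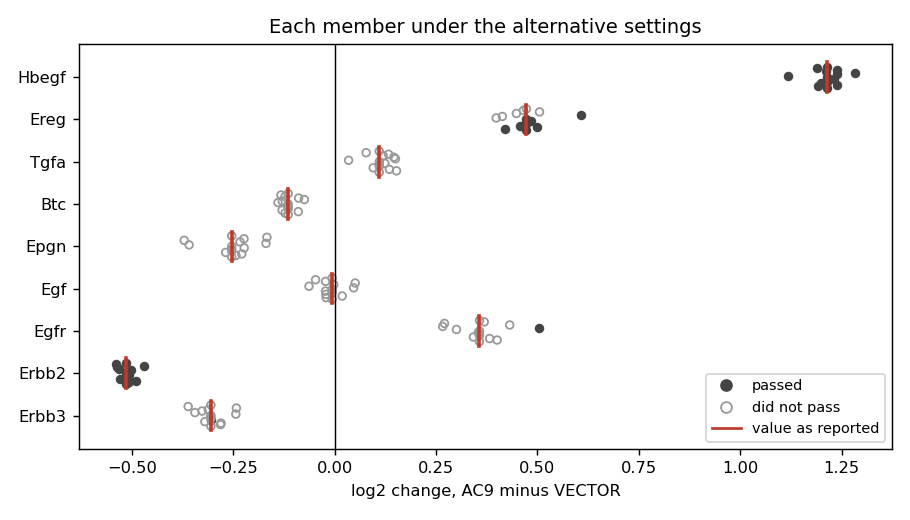
For each gene, points give the log2 change, AC9 minus VECTOR (horizontal axis), under each alternative setting, filled where it passed that setting's threshold, and the red bar the value as reported. No size is read for Egf, which lies under the negative-control bound. All points of Hbegf and Erbb2 are filled, those of Ereg are mixed between 0.40 and 0.61, and Egfr and Erbb3 have 1 filled point each.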

How the data were processed

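The deposited values were used as given: log2 intensities per probe set, which the authors made with RMA according to the submitters' processing notes. RMA subtracts background, equalises the arrays by quantiles and combines the probes of a set, so it can hide shifts shared by most genes. For its version and the genome build, none was stated in the labels. Of 28846 probe sets, 19572 carried 1 gene symbol in GEO's platform annotation and gave 19505 genes. Apart from controls, the other 2634 carried no symbol or more than 1 and were left out. All 6 arrays had a median gene level of 6.42 to 6.46.

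AC9 was compared with VECTOR over all genes with limma 3.58.1 under R 4.3.3 (eBayes after lmFit, two-sided, Benjamini-Hochberg adjustment), checked on simulated data. Ranges, SDs and intervals cover 3 arrays a group, and their number limits the precision. Named were all members, Adcy9, up to 3 highest and 3 lowest genes past the threshold of each pathway list, and the genes most like Hbegf and Egfr; other genes named were chosen after their values were seen. The members, lists and neighbours were chosen with earlier results of these data known. Of the 108 genes of the 6 pathway lists, those with no probe set named were not analysed here. The alternatives were another variance prior, repeated quantile normalization, centring on the median or on negative controls, a filter on dim genes, the mean of probe sets, array weights, a replicate block, each array left out and an adjusted p of 0.01.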

Additional observations from a re-analysis of the deposited data

Results flagged for a closer look

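A signal outside the main measurement was seen in 2 kinds of probe set. Among the probe sets with no gene name here, which the comparison did not use, 149 of 2634 were higher in AC9 and 126 lower at a limma adjusted p of 0.05. Of the 23 background probe sets, 19 were lower in AC9 without overlap between the groups.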

How the results depend on the processing

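Of the 9 ligands and receptors, 3 passed as reported and 2 to 3 passed with an array left out. Without VECTOR replicate 2, Egfr passed and Ereg did not. The number was 4 with dim genes left out, where Erbb3 was added, and 2 at an adjusted p of 0.01, where Ereg was lost. Egf lay under the negative-control bound on all arrays, so neither size nor direction is read for it; its fitted value lay on both sides of 0, at 0.019 with each array centred on its median and from -0.063 to 0.051 with an array left out. Over all genes, 3424 passed, 2174 to 3025 with an array left out and 1670 at an adjusted p of 0.01. At that stricter threshold 4 receptor restrainers, 3 adaptors and 2 heparan sulfate genes passed. The intensity-trended prior called 12 adaptors and 16 EGF-inducible transcripts, and 4674 of all genes. With an array left out, the counts ranged from 4 to 7 for restrainers, 3 to 6 for adaptors, 4 to 6 for genes of ligand release, 7 to 9 for EGF-inducible transcripts and 3 to 5 for heparan sulfate genes. With the replicate number as a block, 5 restrainers and 5 adaptors passed and the 3 ligand and receptor calls were kept. The labels give both groups numbers 1 to 3, but same-numbered arrays deviated together only weakly (r 0.0085, 0.081 and 0.0076 across genes), so the numbers are not taken as pairs. The causes of these shifts were not tested. Signals near the bound, as for Epgn, Egf and Erbb3, limit what can be measured.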
